A study of Mus musculus with 72 samples.

Results

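The 10 genes described here encode matrix proteins, growth factors, receptors and transcription factors of mesenchymal cells that are also known from tumor stroma: Tnc, Ptn, Mdk, Ptk7, Tnfrsf12a, Prrx1, Postn, Twist1, Lum and Pcolce. They were chosen by name with earlier results of these data known, and all of their probes on the array were taken, 21 of 25697. Shares of all genes given beside their counts below are therefore a scale and not a test of the list. Of the 10 genes, 9 were measured well enough to be tested, among 12265 genes in all. The RNA came from adipose tissue of mice that lacked ATGL (encoded by Pnpla2, the lipase that starts triglyceride breakdown), HSL (encoded by Lipe, the lipase for diglycerides) or both. In HSLAKO mice both floxed copies of Lipe were exposed to Cre driven by the fat cell promoter of Fabp4, ATGLAKO mice lacked ATGL in adipose tissue, and DAKO mice were bred from both strains and lacked both lipases. Controls also carried the Fabp4-Cre transgene, and all strains were on a C57BL/6J background. Brown adipose tissue (BAT) was measured at 3 months in 5 control, 5 ATGLAKO, 4 HSLAKO and 5 DAKO mice, and at 7 and at 12 months in 4 mice of each genotype. A further 5 arrays were labelled DAKO brown adipose at 14 months, and white adipose tissue (WAT) at 3 months was measured in 3 control, 5 ATGLAKO, 4 HSLAKO and 4 DAKO mice. By the sample names, the arrays of a group came from different animals. Arrays of WAT and BAT at 3 months shared animal numbers in every genotype, if a leading letter A in some names is ignored.

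Mesenchymal cells of fat tissue lay down a matrix of collagen and of proteins that adjust it. Tenascin C (Tnc) and periostin (Postn) are matricellular proteins, which signal to cells through integrins and are made during wound repair and in tumor stroma. Lumican (Lum) is a small leucine-rich proteoglycan that binds collagen fibrils, and Pcolce encodes the enhancer of the protease that trims procollagen to collagen. Pleiotrophin (Ptn) and midkine (Mdk) form a family of heparin-binding growth factors. Ptk7 is a receptor-like pseudokinase of Wnt and planar polarity signalling, and Tnfrsf12a encodes Fn14, the receptor of the cytokine TWEAK. Prrx1 is a homeobox transcription factor of mesenchymal progenitors, and Twist1 is a basic helix-loop-helix factor that binds E-boxes and is known from epithelial-mesenchymal transition.

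Of the 10 genes, 8 had an upstream sequence in RefSeq (GRCm38.p6). The 250 bases before the annotated start are shown for the 4 genes that set 5 arrays apart from all others, as described further on, so that their start regions can be read beside those values. The capitals mark matches, on either strand, to an E-box (CANNTG), a TATA box (TATAAA) or a GC box (GGGCGG). All are written 5′ to 3′ on the strand of the gene.
Tnc, chr4:64047016-64047265, minus strand: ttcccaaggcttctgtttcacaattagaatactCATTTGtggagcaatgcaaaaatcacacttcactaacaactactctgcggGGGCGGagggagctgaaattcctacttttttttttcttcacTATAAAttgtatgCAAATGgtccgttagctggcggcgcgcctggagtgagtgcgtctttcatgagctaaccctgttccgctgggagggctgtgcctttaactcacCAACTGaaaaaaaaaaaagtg
Ptn, chr6:36810180-36810429, minus strand: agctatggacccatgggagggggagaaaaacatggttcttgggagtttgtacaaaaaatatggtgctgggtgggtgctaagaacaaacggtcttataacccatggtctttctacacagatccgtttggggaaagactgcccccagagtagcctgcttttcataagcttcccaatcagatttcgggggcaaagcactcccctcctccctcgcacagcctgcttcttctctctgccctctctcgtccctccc
Tnfrsf12a, chr17:23677450-23677699, minus strand: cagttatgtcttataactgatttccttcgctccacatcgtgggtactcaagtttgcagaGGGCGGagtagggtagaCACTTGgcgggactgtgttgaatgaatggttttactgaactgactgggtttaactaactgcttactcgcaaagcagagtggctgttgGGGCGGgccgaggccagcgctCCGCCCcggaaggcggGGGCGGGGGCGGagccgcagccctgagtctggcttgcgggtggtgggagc
Twist1, chr12:33957421-33957670, plus strand: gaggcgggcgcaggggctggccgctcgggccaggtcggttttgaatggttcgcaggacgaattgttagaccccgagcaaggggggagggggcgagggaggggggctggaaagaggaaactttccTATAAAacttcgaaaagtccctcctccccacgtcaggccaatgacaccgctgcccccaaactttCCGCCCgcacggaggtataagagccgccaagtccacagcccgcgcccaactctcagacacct
The window of Tnc held 3 E-boxes, 1 TATA box and 1 GC box, and that of Tnfrsf12a held 1 E-box and 5 GC boxes. Twist1 had 1 TATA box and 1 GC box, and Ptn had none of these letters. No marked match overlapped another. Over all 32851 listed promoters, windows of the same length held an E-box in 66.2%, a GC box in 32.7% and a TATA box in 12.4%. A match to the AP-1 site (TGANTCA) was in none of the 4 windows and in 6.75% of all. The 4 windows differed in base composition, with 44.8% G and C in Tnc, 52% in Ptn, 58.8% in Tnfrsf12a and 62.4% in Twist1, against a median of 52.4% over all promoters. These matches are descriptions of letters and were not tied to binding.

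All values below are log2 signals after background correction and quantile normalization, in which one unit is a doubling, and background lies near 4.3. The median raw signal of the arrays ran from 94.7 to 160.6, and 44.8 to 54.8% of probes were above background. Some arrays went against their labels. The mean of 9 mesothelial markers, genes of the lining that covers abdominal fat, reached 6.21 or more on 16 arrays and stayed at or below 5.65 on the rest. The 16 were all 8 arrays labelled control BAT at 7 and 12 months, 2 of 4 of ATGLAKO BAT at 7 months, 1 of 4 of ATGLAKO BAT at 12 months, 4 of 5 of ATGLAKO WAT and 1 of 3 of control WAT. Ucp1, the uncoupling protein that defines brown fat, was above 10 on 10 of 16 arrays labelled WAT and on 33 of 56 labelled BAT. On the 8 control BAT arrays at 7 and 12 months it lay between 4.33 and 8.25, against 13.61 to 13.82 on control BAT at 3 months. The deleted lipases also went against labels in BAT at 3 months, where Pnpla2 lay between 12.91 and 13.31 and Lipe between 9.31 and 9.95 on the control arrays. Of 5 arrays labelled DAKO, all had Lipe below every control array but 2 had Pnpla2 below them, and the other 3 were at 13.85 to 14.04. Of 5 labelled ATGLAKO, 3 had low Pnpla2 and 2 had low Lipe, and of 4 labelled HSLAKO, all had low Lipe and 2 had low Pnpla2 as well. Both lipases were as the label says on 2 DAKO, 1 ATGLAKO and 2 HSLAKO arrays. At the later ages no control BAT array had both lipases in the range of control BAT at 3 months or above it. Lipe was at 6.56 to 7.03 on the 4 control arrays at 7 months, and Pnpla2 at 10.30 to 12.60 on the 4 at 12 months. By the lowest control array at 3 months, both lipases were as labelled on 4 of 4 DAKO arrays at 7 months, 3 of 4 at 12 and 3 of 5 at 14 months. In DAKO, Lipe was still at 9.07 and 8.69 on replicates 1 and 2 at 7 months and at 9.36, 9.18 and 9.44 on replicates 1 to 3 at 14 months, and Pnpla2 was at 14.14 on replicate 3 at 12 months. In HSLAKO they were as labelled on 2 of 4 arrays at 7 months and 1 of 4 at 12 months, the others being low in Pnpla2 as well, and in ATGLAKO on 0 of 4 and 1 of 4. Where the probes lie relative to the deleted exons is not given in the sources used here. Group names are therefore those of the labels throughout, and directions by genotype rest on them. So the comparisons at 7 and 12 months set knockout BAT against arrays that carried mesothelial signal and little Ucp1, and genotype and tissue of origin cannot be told apart in them.

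Signals of the 10 genes differed widely in strength. Lum, Pcolce, Twist1, Prrx1 and Tnfrsf12a were detected on all 72 arrays, as was Mdk, and Tnc on 63. Ptn was detected on 41 arrays and Ptk7 on 31. Postn, with 1 probe, was above background on 2 of 72 arrays, ran from 4.16 to 4.78 and was not tested. Where a gene had several probes, its main probe was the tested probe with the highest mean. The main probe of Tnc correlated with a neighbouring probe at r = 0.99 and with the remaining tested probes at 0.49 and 0.79 over 72 arrays. The main probe of Prrx1 correlated with 2 others at 0.96 and 0.94, and with a dim probe, detected on 7 arrays, at 0.37. For Mdk, the values were 0.91 and 0.71.

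In BAT at 3 months, Pcolce, Lum and Prrx1 were higher on arrays labelled DAKO and HSLAKO than on control arrays. A gene was counted as changed when limma gave a probe of it an adjusted p under 0.01 together with a difference of more than 1.5 log2 units. By this rule 3 of 9 tested genes rose in DAKO BAT, against 0.750% of all genes called in either direction, and 3 of 9 rose in HSLAKO BAT, against 1.71% of all genes. None fell. The median log2 fold change was 1.36 over the 9 genes in DAKO and -0.04 over all genes, and 1.59 and -0.03 in HSLAKO. Both comparisons share the 5 control arrays. In tissue RNA, more cells of a type and more RNA per cell cannot be told apart.

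Pcolce, the procollagen protease enhancer, had the clearest difference. On the 5 control BAT arrays it was at 7.35, 7.52, 7.37, 7.23 and 7.17, and on the 5 DAKO arrays at 9.92, 10.05, 8.98, 10.84 and 10.63. All DAKO arrays lay above all control arrays. In log2 units the rise was 2.75 (standard error 0.51, adjusted p = 0.000794 from limma). HSLAKO arrays were at 9.30, 10.93, 10.95 and 9.71, a rise of 2.89 (standard error 0.54, adjusted p = 0.000707), also with no overlap. Leaving out any array kept both calls, with rises of 2.57 to 3.03 and of 2.65 to 3.20. On the arrays with both lipases as labelled, the rise was 3.40 in DAKO (n = 2 against 5, adjusted p = 0.00255 from limma) and 2.17 in HSLAKO (n = 2 against 5, adjusted p = 0.0806 from limma). ATGLAKO arrays were unlike each other, at 8.41, 7.81, 11.14, 9.91 and 9.97. Pnpla2 was at 13.2 and 13.31 on replicates 1 and 2, as on controls, and at 11.18, 11.67 and 11.95 on replicates 3 to 5. Macrophage marker means were 7.08 and 6.59 on the former and 8.88, 8.49 and 8.82 on the latter. The part of either in the spread of Pcolce was not tested. The 5 ATGLAKO arrays lay above the controls by 2.12 in the mean (standard error 0.51, adjusted p = 0.0217), which missed the threshold.

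Lum, the collagen-binding proteoglycan, also rose in DAKO and HSLAKO. It was at 6.86, 7.73, 7.65, 7.10 and 7.26 on control arrays, and at 9.47, 9.95, 10.61, 10.22 and 9.30 on DAKO arrays. Every DAKO array was above every control array. In DAKO the rise was 2.59 (limma, standard error 0.57, adjusted p = 0.00486), and it was 2.49 (standard error 0.60, adjusted p = 0.00654) in HSLAKO, whose arrays were at 9.53, 10.59, 9.74 and 9.38. These calls were close to the threshold. In DAKO, leaving out control replicate 1, 4 or 5 or DAKO replicate 2, 3 or 4 ended the call (over all 10 arrays left out in turn, rises of 2.42 to 2.74 and a highest adjusted p of 0.0179). In HSLAKO, leaving out any of the 9 arrays ended it (rises of 2.23 to 2.63, highest adjusted p = 0.0467). With only the arrays whose lipases were as labelled, the rises were 2.44 (adjusted p = 0.0933) and 2.13 (adjusted p = 0.199). ATGLAKO arrays ran from 8.17 to 10.61, again without overlap with the controls, at a difference of 1.80 (standard error 0.57, adjusted p = 0.0924).

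Prrx1, the homeobox factor, rose by less. It was at 5.44, 4.91, 5.39, 5.37 and 5.10 on control arrays and at 7.04, 7.01, 6.22, 7.01 and 7.22 on DAKO arrays. The groups did not overlap, and DAKO replicate 3 was the lowest of its group. In DAKO the rise was 1.65 (standard error 0.36, adjusted p = 0.00463 from limma). In HSLAKO it was 1.68 (standard error 0.38, adjusted p = 0.00412), from arrays at 6.56, 7.31, 6.84 and 7.01. Both calls ended with the authors' normalized values, where the differences were 0.46 and 0.47. They also ended without control replicate 2 or 5, without DAKO replicate 2, 4 or 5, and without HSLAKO replicate 2, 3 or 4, with rises of 1.57 to 1.83 and of 1.56 to 1.81 and highest adjusted p-values of 0.0171 and 0.0314 over all arrays left out in turn. With only the arrays whose lipases were as labelled, the rises were 1.87 (adjusted p = 0.0436) and 1.54 (adjusted p = 0.133). Of the further probes, those that follow the main probe differed by 1.56 and 1.31 in DAKO and by 1.74 and 1.33 in HSLAKO, and the dim probe by 0.00 and -0.10.

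**Figure D1:**
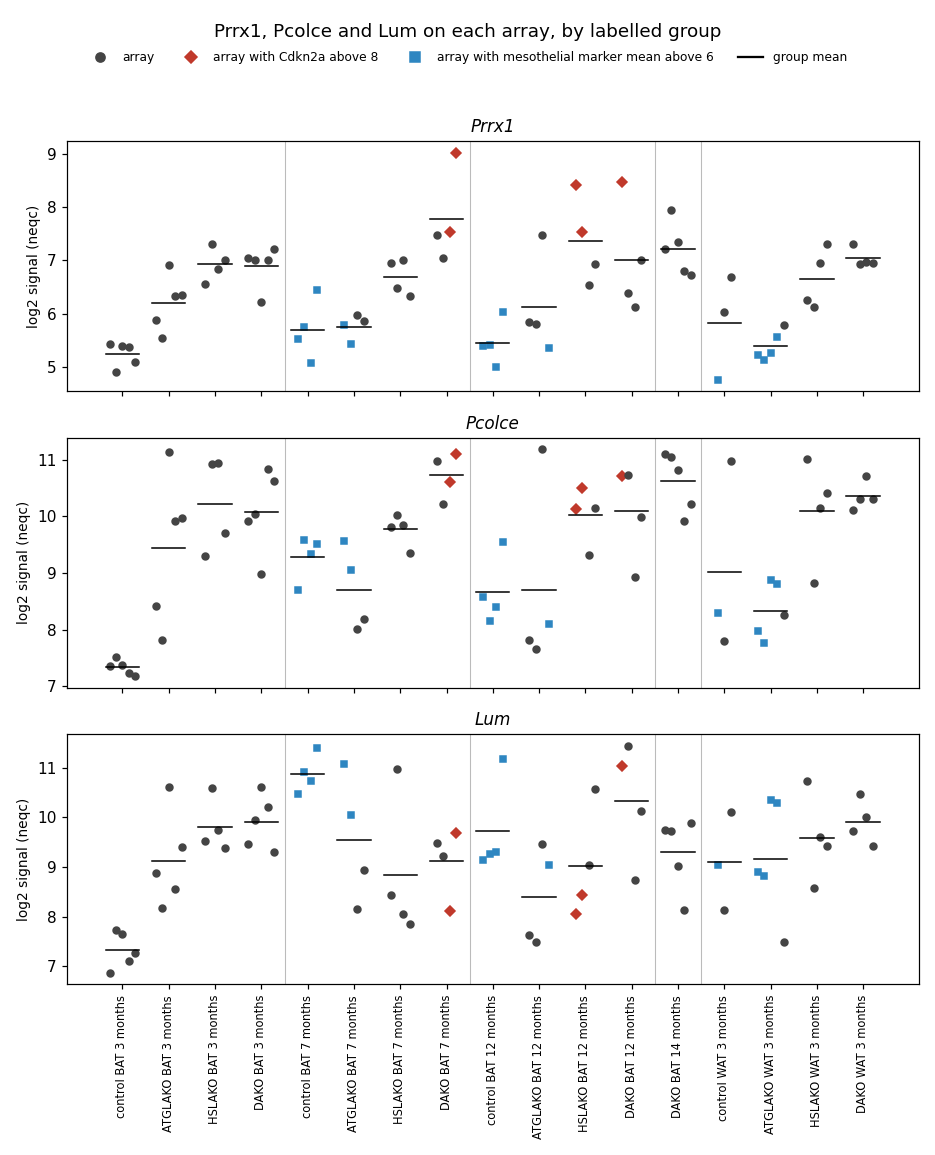
Log2 signal of Prrx1, Pcolce and Lum (y axis) on each of the 72 arrays by labelled group (x axis). Points are arrays, bars are group means, diamonds are arrays with Cdkn2a above 8 and squares are arrays with a mesothelial marker mean above 6. In BAT at 3 months the control arrays of Pcolce (7.17 to 7.52) and Lum (6.86 to 7.73) lie below all knockout arrays, while Lum is highest in the mean on control BAT at 7 months.

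The remaining genes did not pass the test in BAT at 3 months. Tnc had means of 4.74 ± 0.39 (SD, n = 5) in control and 6.32 ± 0.95 (SD, n = 5) in DAKO, a difference of 1.58 (standard error 0.96, adjusted p = 0.34 from limma), although the arrays did not overlap. Mdk was at 6.23 ± 0.17 (SD, n = 5) and 7.59 ± 0.48 (SD, n = 5), a difference of 1.36 (standard error 0.71, adjusted p = 0.255), also without overlap. For Tnfrsf12a the difference was 1.14 (standard error 0.53, adjusted p = 0.188), again without overlap of the 5 and 5 arrays. Thus 6 of 9 genes had every DAKO array above every control array, against 8.32% of all genes, and 3 of the 6 passed. Twist1 differed by -0.02, with a 95% interval from -0.84 to 0.80. Ptn and Ptk7 were above background on 0 of 5 control arrays, so their values there are only bounds. Ptn was above background on 2 of 5 DAKO arrays, and its mean was at least 1.38-fold higher (adjusted p = 0.585 from limma). This bound rests largely on replicate 3, at 8.12, with the other DAKO arrays at 4.46 to 5.05.

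Marker lists of other cell types moved with these rises at 3 months. The mean over 6 tested macrophage markers was 6.29 to 6.68 on control BAT, 8.37 to 10.67 on DAKO BAT and 8.14 to 10.90 on HSLAKO BAT, with 2 of 6 (Adgre1 and Lyz2) called higher in DAKO and 3 of 6 in HSLAKO. The mean over 8 fibroblast markers was 6.61 to 6.93 on control, 7.86 to 8.64 on DAKO and 8.16 to 9.32 on HSLAKO arrays, with 0 of 8 called in DAKO and 2 of 8 (Dpt and Col3a1) in HSLAKO. Mesothelial means were 4.37 to 5.05 on control, 4.34 to 5.65 on DAKO and 4.31 to 4.35 on HSLAKO arrays. The mean over 5 skeletal muscle markers was 9.01 to 10.25 on control, 9.97 to 13.13 on DAKO and 10.16 to 13 on HSLAKO arrays, and all 5 were higher in both knockouts with 0 called (medians of 2.33 and 1.90). The mean over 3 proliferation markers was 4.38 to 4.62, 5.59 to 7.17 and 5.71 to 7.12, again with 3 of 3 higher and 0 called. Brown adipocyte markers were lower in 6 of 6 in both, with medians of -0.60 in DAKO, where 0 were called, and -1.25 in HSLAKO, where Elovl3 was. The part of these signals in the rises of Pcolce, Lum and Prrx1 was not tested.

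At 7 and 12 months, Prrx1 was the only one of the 9 genes that passed against control BAT, in DAKO at both ages and in HSLAKO at 12 months. One of 9 genes rose in DAKO at 7 months (0.856% of all genes called), 1 of 9 at 12 months (4.04% of all) and 1 of 9 in HSLAKO at 12 months (4.78% of all). None of the 9 passed in HSLAKO at 7 months (1.01% of all genes called). There 2 of 9 had an unadjusted p under 0.05, as did 2840 of all 12265 genes. Each count of 1 called gene rests on that single gene.

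At 7 months, Prrx1 was at 5.52, 5.76, 5.08 and 6.44 on control arrays and at 7.48, 7.05, 7.54 and 9.02 on DAKO arrays. The groups did not overlap, and the rise was 2.07 (standard error 0.40, adjusted p = 0.00158 from limma). Further probes rose by 2.13 and 1.77. DAKO replicates 3 and 4 are arrays with high Cdkn2a, described below, and without the arrays of that kind the difference was 1.56 (adjusted p = 0.0357). It was 1.86 (adjusted p = 0.0136) without control replicate 3 and 1.66 (adjusted p = 0.0254) without DAKO replicate 4. At 12 months, control arrays were at 5.40, 5.42, 5.01 and 6.03 and DAKO arrays at 8.47, 6.38, 6.13 and 7.00. The rise was 1.53 (standard error 0.40, adjusted p = 0.00604). Without DAKO replicate 1, an array with high Cdkn2a, it was 1.04 (adjusted p = 0.0815), and leaving out control replicate 1, 2 or 3 or DAKO replicate 4 ended the call too. Without replicate 3, whose Pnpla2 went against the label, it was 1.82 (adjusted p = 0.00123 from limma). HSLAKO arrays at 12 months were at 8.41, 7.53, 6.54 and 6.94, a rise of 1.89 (standard error 0.40, adjusted p = 0.000711), which was 1.54 (adjusted p = 0.0117) without replicate 1. With replicate 3 alone, the one HSLAKO array of that age with both lipases as labelled, it was 1.07 (adjusted p = 0.363 from limma, the lone array being assumed to vary like the other groups). HSLAKO arrays at 7 months were at 6.96, 6.48, 7.00 and 6.33, all but one above the highest control, with a difference of 0.99 (standard error 0.40, adjusted p = 0.126).

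Lum changed its order between the ages. Control BAT at 7 months had it at 10.47, 10.91, 10.74 and 11.41, and DAKO BAT at 9.49, 9.22, 8.11 and 9.69. Here every control array lay above every DAKO array, at a difference of -1.75 (standard error 0.64, adjusted p = 0.0799 from limma). HSLAKO arrays, at 8.43, 10.98, 8.05 and 7.84, differed by -2.06 (standard error 0.64, adjusted p = 0.0375). The change of the DAKO difference from 3 to 7 months was tested as an interaction of age and genotype: it was -4.34 (standard error 0.85, adjusted p = 0.00155), and Lum was the only one of 9 genes called, against 1.60% of all genes. Without the 3 DAKO arrays of 3 months whose Pnpla2 went against the label it was -4.19 (adjusted p = 0.0175), and with single arrays left out in turn the call was kept. From 3 to 12 months it was -1.97 (standard error 0.85, adjusted p = 0.161), and 0 of 9 genes were called, against 1.01% of all. An unadjusted p under 0.05 was found for 1 of the 9, and for 2723 of all 12265 genes. The 4 control arrays at 7 months are among those with mesothelial signal, at means of 6.21 to 7.59, and none is left without them.

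Pcolce at 7 months was at 8.70, 9.59, 9.33 and 9.51 on control arrays and at 10.98, 10.22, 10.61 and 11.11 on DAKO arrays. The groups did not overlap, yet the difference of 1.45 (standard error 0.57, adjusted p = 0.114 from limma) missed the threshold. At 12 months it was 1.42 in DAKO (standard error 0.57, adjusted p = 0.0821) and 1.36 in HSLAKO (standard error 0.57, adjusted p = 0.0938). The control mean itself was 7.33 at 3, 9.28 at 7 and 8.67 at 12 months, while DAKO means were 10.08, 10.73 and 10.09.

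No gene of the 9 passed in ATGLAKO BAT, where both lipases were as labelled on 1 of 5 arrays at 3 months, 0 of 4 at 7 and 1 of 4 at 12 months. The share of all genes called there was 0.0897% at 3, 0% at 7 and 0.391% at 12 months. An unadjusted p under 0.05 was found for 3, 1 and 1 of the 9, and for 1929, 1397 and 2664 of all 12265 genes. Medians over the 9 genes were 0.56, -0.55 and -0.54, against -0.02, -0.01 and 0.00 over all genes. In ATGLAKO BAT at 12 months, replicate 3 stood apart for Pcolce, at 11.19 against 7.82, 7.65 and 8.10. Pnpla2 was at 11.03 on that array and at 13.18 and 13.11 on replicates 1 and 2. It was at 10.75 on replicate 4, an array with mesothelial signal. Macrophage marker means were 9.295 on replicate 3 and 6.79, 6.96 and 8.59 on replicates 1, 2 and 4. The part of these in the Pcolce value was not tested.

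**Figure D2:**
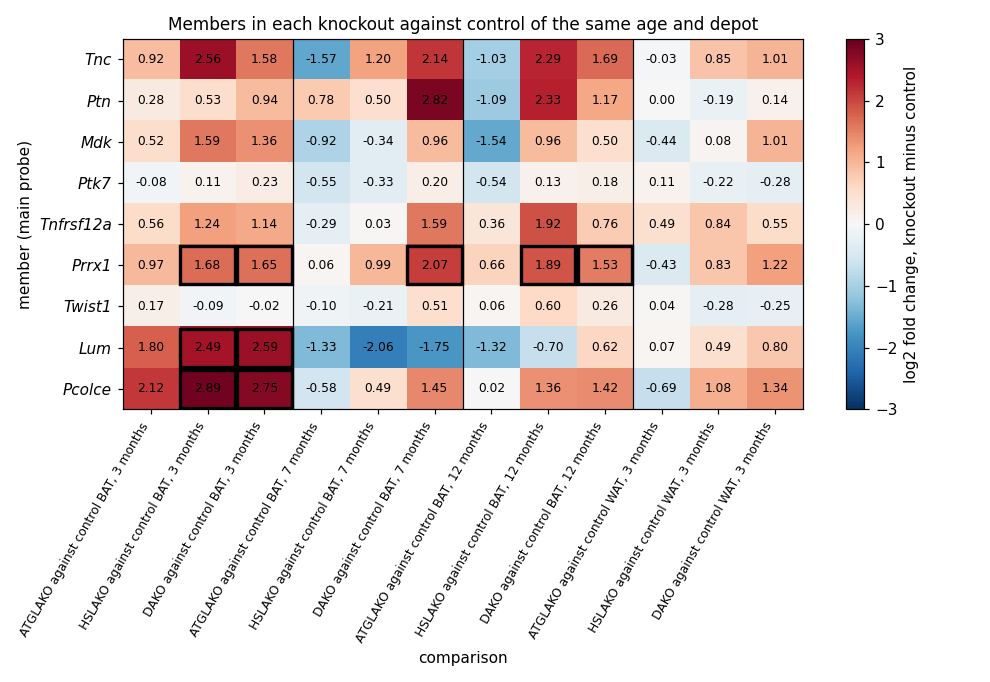
Log2 fold change of the main probe of 9 genes (rows) in each knockout against control of the same age and depot (columns), with color and number giving the value and a black frame a call (adjusted p under 0.01 together with a difference of more than 1.5 log2 units). The 9 framed cells are Prrx1 in 5 comparisons, Lum in 2 and Pcolce in 2, all higher in the knockout.

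DAKO BAT was also compared with each single knockout. Of the 9 genes, 0 passed against ATGLAKO at 3, 7 or 12 months, where 0% of all genes were called at each age, or against HSLAKO at 3 and 12 months, where 0% were called, and at 7 months, where 0.00815% were. Unadjusted p-values under 0.05 were found for 715, 2027 and 3369 of all 12265 genes against ATGLAKO and for 134, 1960 and 462 against HSLAKO. Of the 9 genes, 0, 6 and 6 had one against ATGLAKO and 0, 3 and 1 against HSLAKO. The difference nearest to a call was that of Prrx1 from ATGLAKO at 7 months, 2.01 (standard error 0.40, adjusted p = 0.0362 from limma), where the ATGLAKO arrays ran from 5.44 to 5.97, below all DAKO arrays. Tnc (3.71, adjusted p = 0.0752) and Pcolce (2.03, adjusted p = 0.0679) did not overlap there either. At 3 months the means of the groups labelled DAKO and HSLAKO BAT were close: the difference was -0.14 for Pcolce (95% interval -1.23 to 0.95), 0.10 for Lum (-1.11 to 1.31) and -0.03 for Prrx1 (-0.80 to 0.74). Both lipases were as labelled on only 2 of 5 DAKO and 2 of 4 HSLAKO arrays. On those, Pcolce was at 10.84 and 10.63 in DAKO against 9.30 and 9.71 in HSLAKO. Lum was at 10.22 and 9.30 against 9.53 and 9.38, and Prrx1 at 7.01 and 7.22 against 6.56 and 7.01.

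Tnc, Ptn, Mdk and Tnfrsf12a were spread widely within several groups of knockout BAT at 7 and 12 months. Tnc was at 6.62, 6.27, 11.14 and 11.24 on DAKO BAT at 7 months and at 12.34, 7.09, 5.74 and 8.93 at 12 months. On HSLAKO BAT at 12 months it was at 10.69, 12.07, 6.09 and 7.63. The DAKO group at 7 months thus fell into 2 low and 2 high arrays. So did HSLAKO BAT at 7 months, with Tnc at 9.71 and 9.53 on replicates 1 and 2 and at 5.94 and 6.34 on the others. Control BAT at 7 and 12 months was at 5.51 to 8.06 on 7 arrays and at 9.74 on replicate 4 at 12 months. The difference from control was 2.14 in DAKO at 7 months (standard error 1.08, adjusted p = 0.233 from limma), 1.69 in DAKO at 12 months (standard error 1.08, adjusted p = 0.297) and 2.29 in HSLAKO at 12 months (standard error 1.08, adjusted p = 0.137).

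The growth factors were high on several of the same arrays. Ptn was at 4.40, 6.06, 11.63 and 9.93 on DAKO BAT at 7 months, from background upward. On HSLAKO BAT at 12 months it was at 10.79, 10.53, 4.42 and 6.34, and on DAKO BAT at 12 months at 10.52, 7.09, 4.36 and 5.42. HSLAKO BAT at 7 months had Ptn at 7.60, 6.45, 4.37 and 4.31. Control BAT at these ages ran from 4.65 to 5.96. The largest difference was 2.82 in DAKO at 7 months (standard error 1.02, adjusted p = 0.078 from limma), which missed the threshold. Without DAKO replicate 1, Ptn was called at 7 months. Mdk was at 7.14, 7.47, 11.32 and 11.38 on DAKO BAT at 7 months and at 10.08, 11.07, 6.48 and 9.80 on HSLAKO BAT at 12 months. Its control arrays at 7 and 12 months reached from 6.88 to 9.98 and overlapped both groups.

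Of the receptors, Tnfrsf12a was at 8.00, 8.14, 11.04 and 10.91 on DAKO BAT at 7 months, at 10.99, 6.66, 7.99 and 7.56 at 12 months and at 11.10, 10.48, 8.35 and 7.90 on HSLAKO BAT at 12 months. Apart from the 5 arrays above 10 in these groups, no array of the series exceeded 9.07. The difference from control was 1.92 in HSLAKO at 12 months (standard error 0.59, adjusted p = 0.0165 from limma). In the DAKO arrays of 7 months it was 1.59 (standard error 0.59, adjusted p = 0.0863). Ptk7 was dim. It reached 7.47 on DAKO BAT at 7 months replicate 4 and 7.52 on DAKO BAT at 12 months replicate 1, with the remaining arrays of these groups between 4.23 and 5.66. Twist1, the helix-loop-helix factor, was at 6.82, 6.25, 7.91 and 8.13 on DAKO BAT at 7 months and at 10.24, 5.68, 6.87 and 6.11 at 12 months. On HSLAKO BAT at 12 months it was at 8.31, 8.63, 6.59 and 6.77, and no group mean of it differed from control past the threshold.

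**Figure D3:**
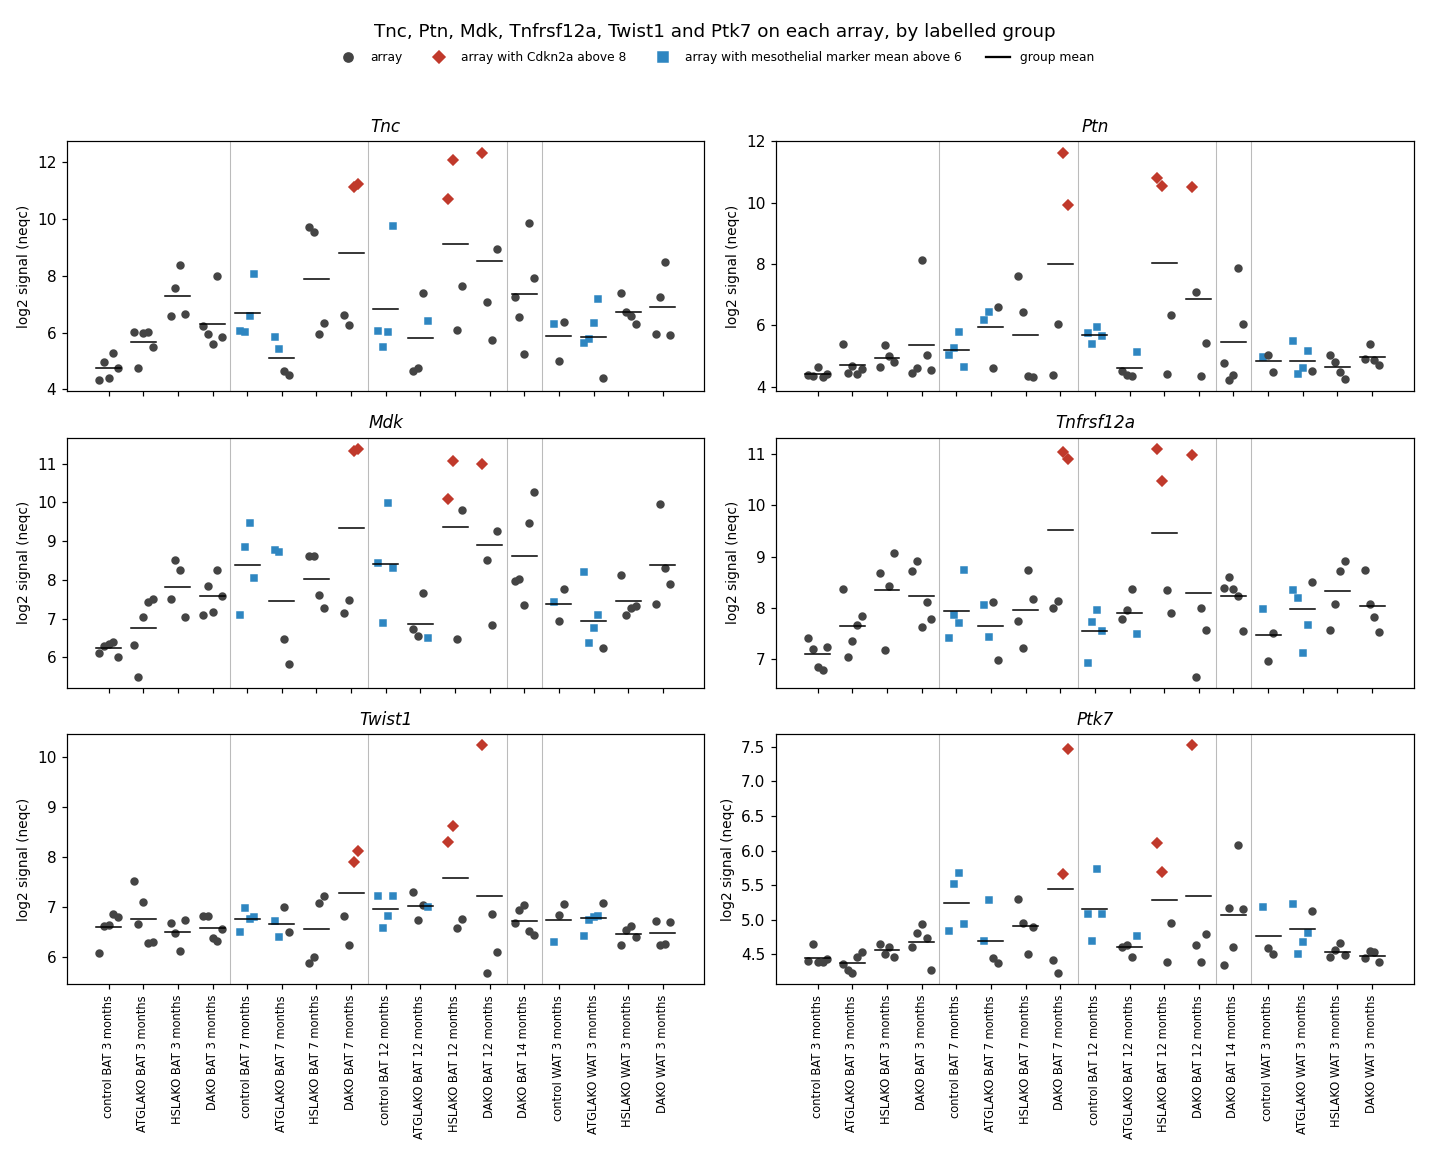
Log2 signal of Tnc, Ptn, Mdk, Tnfrsf12a, Twist1 and Ptk7 (y axis) on each of the 72 arrays by labelled group (x axis). Points are arrays, bars are group means, diamonds are the 5 arrays with Cdkn2a above 8 and squares are arrays with a mesothelial marker mean above 6. The diamonds are the highest points of Tnc (10.69 to 12.34), Ptn (9.93 to 11.63), Tnfrsf12a (10.48 to 11.10) and Twist1 (7.91 to 10.24).

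Several of these high arrays also had a high signal of Cdkn2a, which encodes the cell cycle inhibitor p16 and the p53 regulator ARF. Others did not: Cdkn2a was at 4.56 and 4.68 on HSLAKO BAT at 7 months replicates 1 and 2, the arrays with Tnc at 9.71 and 9.53, and at 5.59 on HSLAKO BAT at 12 months replicate 4, where Mdk was at 9.80. The split at a Cdkn2a signal of 8 uses a measured value of the same arrays, so what follows is a description with no test. The arrays above 8 were DAKO BAT at 7 months replicates 3 (10.44) and 4 (9.71), HSLAKO BAT at 12 months replicates 1 (10.64) and 2 (9.43) and DAKO BAT at 12 months replicate 1 (9.30). The highest of the 67 others was 5.72, on DAKO BAT at 14 months replicate 4, and their median was 4.32. No array labelled 14 months was above 8. The 5 arrays also stood apart in makeup, with a mean over 6 adipocyte markers of 4.54 to 6.02 against 6.84 to 10.51 on the others, and over 3 proliferation markers of 8.46 to 9.25 against 4.38 to 7.71. Ucp1 was at 4.26 to 4.81 on them, Lipe at 4.48 to 4.77 against 4.61 to 10.37 and Pnpla2 at 7.21 to 9.08 against 9.04 to 14.19. The arrays labelled HSLAKO had the lowest Pnpla2 of all, 7.21 and 8.13, so both lipases were low on all 5 whatever the label, together with the adipocyte markers. Fibroblast markers were at 8.62 to 9.53 against 6.59 to 9.40, and macrophage markers at 9.77 to 10.56 against 6.29 to 10.90. Mesothelial means were 4.47 to 5.19, and none of the 5 is among the 16 arrays with mesothelial signal.

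By the main probe, 4 of the 9 tested genes had all 5 arrays above every other array, Tnc, Ptn, Tnfrsf12a and Twist1, against 4.38% of all genes. In 8 of 9, all but Lum, the 5 lay above the median of the others, against 30.0% of all genes. Ptn ran from 9.93 to 11.63 on the 5 and from 4.22 to 8.12 on the others, with a median of 4.80. Tnfrsf12a, the Fn14 receptor, ran from 10.48 to 11.10 against 6.66 to 9.07, and was the least spread of the 4 on the 5 arrays. Tnc ran from 10.69 to 12.34 against 4.33 to 9.87, and 2 further probes of it did not overlap either (10.49 to 12.15 against 4.22 to 9.65, and 5.92 to 7.47 against 4.18 to 4.90), while another tested probe, a dim one, did (5.19 to 5.97 against 4.29 to 5.29). Twist1 ran from 7.91 to 10.24 against 5.68 to 7.52, its highest value on DAKO BAT at 12 months replicate 1.

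The main probes of the other members overlapped. Mdk was at 10.08 to 11.38 on the 5 arrays, with 1 of the 67 others at or above the lowest of them, DAKO BAT at 14 months replicate 5 at 10.28. A second probe of Mdk overlapped as well (8.26 to 9.65 against 4.69 to 8.48), and a dim one did not (4.91 to 5.21 against 4.18 to 4.89). The dim probe was above background on the 5 arrays and on 1 of the others. It was thus tested only through the 5, and its narrow separation carries no weight for Mdk. For Ptk7, at 5.66 to 7.52, 3 of the others were as high, and for Prrx1, at 7.53 to 9.02, 1 was. Pcolce at 10.13 to 11.11 lay within the range of the others, 7.17 to 11.19, with 21 of them at or above its lowest value. Lum was spread from 8.05 to 11.04 on the 5 arrays, around the median of 9.42 of the others, and 57 of these were at or above the lowest. Postn was at 4.26 to 4.57, with 0 of 5 arrays above background. So Ptn, Tnc, Tnfrsf12a and Twist1 lay apart on these arrays, and the collagen-binding Lum did not.

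**Figure D4:**
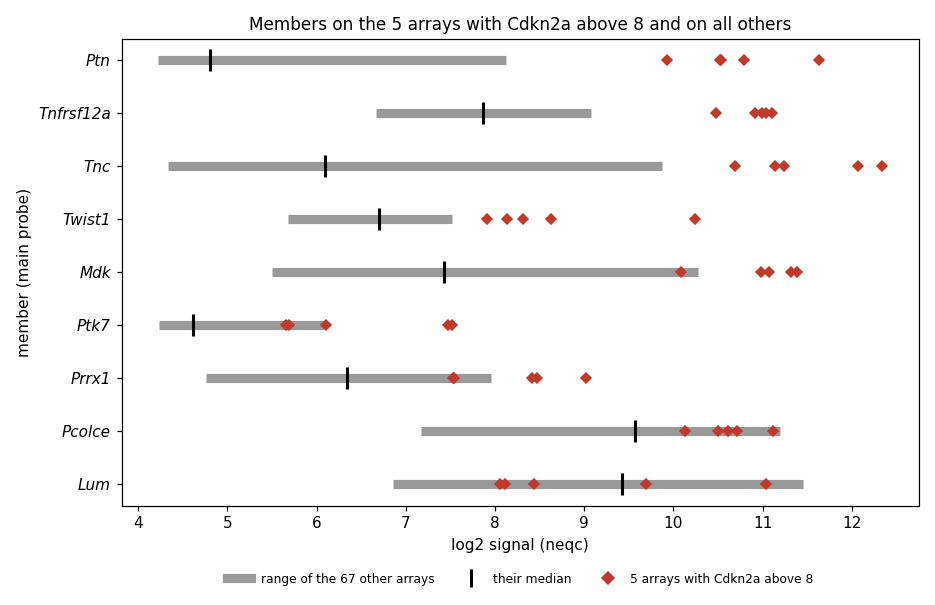
Log2 signal (x axis) of the main probe of 9 genes (y axis) on the 5 arrays with Cdkn2a above 8 (diamonds), with the range (grey bar) and median (tick) of the 67 other arrays. All diamonds lie right of the bar for Ptn, Tnfrsf12a, Tnc and Twist1, while those of Pcolce and Lum lie within it.

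DAKO BAT at 14 months did not differ from DAKO BAT at 12 or at 3 months in any of the 9 genes by the rule, and 0% of all genes were called in both comparisons. None of the 9 had an unadjusted p under 0.05 in either, against 620 and 382 of all 12265 genes. Tnc was at 7.25, 6.54, 5.26, 9.87 and 7.94, Ptn at 4.78, 4.22, 4.38, 7.88 and 6.04 and Mdk at 7.97, 8.03, 7.36, 9.48 and 10.28. Replicates 4 and 5 were the highest for each of these. The same arrays stood apart in makeup, with Ucp1 at 6.21 and 6.82 against 13.47 to 13.56, Lipe at 5.06 and 5.19 against 9.18 to 9.44, adipocyte marker means of 7.35 and 7.47 against 9.20 to 9.38 and macrophage marker means of 10.43 or more against 8.44 to 8.85, whose part in these values was not tested. They were also the lowest for Pcolce, at 9.92 and 10.22 against 11.11, 11.05 and 10.82. Against 12 months the difference was -1.15 for Tnc (95% interval -3.19 to 0.89) and -1.39 for Ptn (-3.32 to 0.54), so shifts of several units are within the error.

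In WAT at 3 months 0 of the 9 genes passed in ATGLAKO, HSLAKO or DAKO against control, where 0% of all genes were called in each. Of the 9, 0, 0 and 2 had an unadjusted p under 0.05, against 414, 348 and 708 of all 12265 genes. Prrx1 was at 4.76, 6.03 and 6.69 on control WAT and at 7.31, 6.93, 6.97 and 6.96 on DAKO WAT, a difference of 1.22 without overlap (standard error 0.44, adjusted p = 0.805 from limma). Pcolce was at 8.29, 7.80 and 10.98 on control WAT, which overlapped DAKO WAT at 10.11 to 10.72. Between depots, 0 of 9 passed in control (0.0245% of all genes called), ATGLAKO (0.302%), HSLAKO (0%) and DAKO (0%). An unadjusted p under 0.05 was found for 2, 2, 0 and 0 of the 9, and for 1646, 2806, 164 and 119 of all genes. These depot tests, and the interaction below, treated WAT and BAT arrays as independent, although animal numbers were shared between them. The largest depot difference was that of Lum in controls, 1.78 higher in WAT (standard error 0.66, adjusted p = 0.243). Whether a genotype difference was unlike in the depots was tested as an interaction, with 0 of 9 genes called in ATGLAKO (0% of all), HSLAKO (0.00815%) and DAKO (0%). An unadjusted p under 0.05 was found for 915, 1246 and 605 of all genes, and for 2, 2 and 1 of the 9. Pcolce came nearest, at -2.80 in ATGLAKO (standard error 0.78, adjusted p = 0.396). With control replicates 2 and 3 of WAT at a Ucp1 of 13.6 and 13.29, brown fat signal was present on arrays labelled WAT. Without the arrays with mesothelial signal, 1 ATGLAKO and 2 control WAT arrays were left, too few for the count of 0 calls found there to bear on stability.

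Related genes were read from 8 lists that were chosen with earlier results of these data known. In DAKO BAT at 3 months 0 genes of the 8 lists passed, although 11 of 12 tested matricellular and adhesion proteins were higher, with a median of 0.79 against -0.04 over all genes. In HSLAKO at 3 months 12 of 12 were higher (median 1.39), and 1 of 12 passed, against 1.71% of all genes: Tgfbi, a secreted integrin ligand, at 10.74 against 8.11 (2.63, adjusted p = 0.00913 from limma). Small leucine-rich proteoglycans, the family of Lum, were higher in 7 of 7 in DAKO at 3 months (median 0.27) with 0 of 7 called. At 7 months 1 of 7 was higher and 6 lower (median -1.02), again with 0 called. At 12 months 1 of 7 fell, against 4.04% of all genes called: Podn, from 7.83 to 5.69 (adjusted p = 0.000379). Of 10 mesenchymal transcription factors, 1 fell in DAKO at 7 months (0.856% of all genes called) and at 12 months (4.04%), Tcf21, a factor of mesoderm and of white fat progenitors. It fell by 2.91 (adjusted p = 0.000144 from limma) at 7 months and fell by 2.61 (adjusted p = 9.55e-05) at 12 months, while Prrx1 rose. Of 6 integrins that bind tenascin C or periostin, 1 fell in DAKO at 12 months (4.04% of all genes called), Itga7, by 2.13 (adjusted p = 0.000399). In HSLAKO, Tcf21 and Itga7 fell at both later ages, Ogn and Pcolce2 fell at 7 months, and Podn and Prelp fell at 12 months, against 1.01% and 4.78% of all genes called. These falls are against the control arrays with mesothelial signal. None of 9 receptors of pleiotrophin and midkine, 10 polarity and Wnt partners of Ptk7, 7 genes of TWEAK signalling or 14 genes of procollagen processing passed in DAKO against control at any age. Between DAKO at 14 and 12 months, 0 genes of the 8 lists passed.

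On the 5 arrays with high Cdkn2a, 11 of 75 tested genes of these lists were above every other array, against 4.38% of all genes, and they are named after their values were seen. Of matricellular and adhesion proteins they were 3 of 12, Ccn4, Tgfbi and Vcan, and Ccn4, a Wnt target, ran from 10.14 to 11.68 against 4.25 to 9.57. Of the partners of Ptk7 they were 3 of 10, Fzd2, Ror2 and Vangl2, and Ror2, a receptor for Wnt5a, ran from 7.34 to 8.10 against 4.20 to 6.00. Of the growth factor receptors, Sdc2, a heparan sulfate proteoglycan, ran from 10.22 to 11.84 against 7.06 to 9.20. Snai1 and Foxc2 of the transcription factors, Loxl2 of collagen cross-linking and Nfkb2 of TWEAK signalling complete the 11. Some of the 11 separated narrowly or near background. Vcan ran from 4.90 to 5.43 against 4.21 to 4.72, and Foxc2 from 4.73 to 5.96 against 4.19 to 4.65. Nfkb2 ran from 5.77 to 6.21 against 4.49 to 5.76. None of 7 proteoglycans and none of 6 integrins was among them.

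The members moved together only in part, and several correlations were lower without the 5 arrays. Over 72 arrays, the Pearson correlation was 0.80 between Tnc and Mdk, 0.75 between Tnc and Ptn and 0.61 between Ptn and Tnfrsf12a. Over the 67 other arrays it was 0.65, 0.42 and -0.26. Prrx1 and Pcolce correlated at 0.82 over all and at 0.84 without the 5, and Lum and Pcolce at 0.57 and 0.62. Twist1 correlated with Tnc at 0.45 over all and at -0.33 without the 5. These are descriptions over arrays that share genotype, age and tissue. Among all genes, those most like each member over the 72 arrays were Cdca4 and Cdc20 for Tnc (r = 0.91 for both), Slc7a3 and Cct3 for Ptn (0.91) and Tceal9 and Samd14 for Mdk (0.91 and 0.89). Inhba and Cacna1g were most like Ptk7 (0.86), Gar1 and Mrto4 most like Tnfrsf12a (0.84 and 0.80), and Tmem108 and Twist2 most like Twist1 (0.83 and 0.82). For Pcolce they were Ccl4 and Ms4a7 (0.86 and 0.85), for Lum Clec4a3 and Folr2 (0.83) and for Prrx1 Dnmt3l and Tle6 (0.79 and 0.77). Cdca4, Cdc20, Slc7a3, Cct3, Tceal9, Samd14, Inhba, Gar1, Mrto4 and Tmem108 were themselves higher on the 5 arrays than on every other array. The correlations with these most similar genes were not computed without the 5.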

How the data were processed

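RNA of mouse brown and white adipose tissue was hybridised to Illumina MouseRef-8 v2.0 arrays, 1 sample an array. The deposited intensity values were probe signals without normalization, and the detection p-value of each probe was deposited beside them. A second table deposited by the authors held signals normalized by them, by a method not given in the sources used here. The log2 of these signals was used only as an alternative. Background correction and quantile normalization of the unnormalized signals used the neqc function (limma 3.58.1 under R 4.3.3, offset 16) and the detection p-values. Probes with a detection p under 0.05 on 3 or more arrays, 18083 in number, entered 1 limma fit with 1 mean for each of 17 groups (55 residual degrees of freedom), and p-values were adjusted by Benjamini and Hochberg over all tested probes within each comparison. A gene was called on any tested probe that passed an adjusted p of 0.01 together with a difference of more than 1.5 log2 units in either direction, and each gene counts once in the share of all genes. The members, the lists and the rule for named genes (all members, and the 2 genes most like each) were chosen with earlier results of these data known. Symbols came from the platform annotation. A fold against a group with no array above background was given as a bound, taken against each array's lowest signal among detected probes. Precision is limited by the number of arrays. Alternatives were the normalization, background correction, filter, array weights, threshold, groups fitted, replicate block and arrays left out in turn.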

Additional observations from a re-analysis of the deposited data

Results flagged for a closer look

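In 10 of 144 sets, each the 4 or 5 arrays of 1 group for 1 tested gene, 1 array lay far from the rest by Dixon's test. Chance gives about 1 in 20, which is not far from this share. The sets are not independent, since each array enters with every tested gene. Tnc was at 9.74 on control BAT at 12 months replicate 4, where the others ran from 5.51 to 6.06, and the same array had Lum at 11.18 against 9.14 to 9.31. On DAKO BAT at 3 months, Tnc was at 7.98 on replicate 4 against 5.59 to 6.23, and replicate 3 had Ptn at 8.12 against 4.46 to 5.05 and Prrx1 at 6.22 against 7.01 to 7.22. Ptk7 was at 7.52 on DAKO BAT at 12 months replicate 1, an array with high Cdkn2a, against 4.39 to 4.80. Pcolce was at 11.19 on ATGLAKO BAT at 12 months replicate 3 against 7.65 to 8.10. Smaller gaps were those of Ptn on ATGLAKO BAT at 3 months replicate 1, at 5.40 against 4.42 to 4.69, of Ptk7 on control BAT at 3 months replicate 2, at 4.65 against 4.39 to 4.43, and of Prrx1 on DAKO WAT replicate 1, at 7.31 against 6.93 to 6.97.

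The DAKO difference of Lum in BAT changed between 3 and 7 months by -4.34 on the log2 scale (adjusted p = 0.00155 from limma). Control arrays had Lum at 6.86 to 7.73 at 3 months and at 10.47 to 11.41 at 7 months, and those at 7 months carried mesothelial signal, whose part in the change was not tested.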

How the results depend on the processing

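Of 351 recomputed counts of called members that left out no single array, 305 stayed within 1.5 times of the value reported. A count of 0 that stayed at 0 is among these, and most comparisons had 0 members called. The 305 therefore say little about the comparisons with calls, which are given one by one here. Pcolce in DAKO BAT at 3 months was called under every alternative run, and the interaction of Lum kept its direction in all and its call in all but 1. In DAKO BAT at 3 months, 1 member was called (Pcolce) with the authors' values, without background correction and with scaling to a common median, and 1 to 3 with arrays left out in turn. Without the arrays whose lipase levels went against their label, also chosen after the values were seen, 1 was called in DAKO (Pcolce), 0 in HSLAKO at 3 months, and 0 in the age interaction from 3 to 7 months. Leaving out such knockout arrays at 7, 12 and 14 months gave 1 in HSLAKO at 7 months (Lum) and 0 in HSLAKO at 12 months, where 1 array was left. In HSLAKO at 3 months, 1 member (Pcolce) was called with the authors' values, without background correction and with normexp at an offset of 50, 5 with only the compared groups fitted, and 1 to 2 with arrays left out. Against control at 7 months, the DAKO count was 0 with the authors' values, no background correction, normexp, only the compared groups, or without the Cdkn2a arrays, a choice made after the values were seen, and 0 to 2 with arrays left out. At 12 months, the same 5 alternatives gave 0 in DAKO and in HSLAKO, scaling to a common median gave 0 in DAKO, and array weights gave 2 in DAKO and 5 in HSLAKO. With arrays left out these counts were 0 to 1 and 0 to 4, the lowest in HSLAKO without replicate 1 and the highest without replicate 3. A threshold of 0.05 and a log2 fold change over 1 gave 3 in HSLAKO at 12 months, and 1 each in HSLAKO at 7 months (Lum), ATGLAKO at 3 months (Pcolce) and DAKO against ATGLAKO at 7 months (Prrx1). HSLAKO at 7 months also had 1 (Lum) with array weights and after scaling to a common median, and 0 to 1 with arrays left out (1 without HSLAKO replicate 2). Array weights gave 2 in ATGLAKO at 3 months, 1 in DAKO against ATGLAKO (Mdk) and 2 against HSLAKO at 12 months, 2 between depots in control, and 2 in the depot interactions of ATGLAKO and of HSLAKO. Leaving out arrays gave 0 to 1 in ATGLAKO at 3 months (1 without ATGLAKO replicate 2) and in DAKO against ATGLAKO at 7 months (1 without DAKO replicate 1 or 2) and at 12 months (1 without DAKO replicate 3). The dim Prrx1 probe turned the HSLAKO difference at 3 months to -0.10. The cause of these changes was not tested.

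Same-numbered arrays of DAKO and control BAT correlated at -0.12 to 0.03 at 3 months, -0.14 to 0.33 at 7 and -0.12 to 0.26 at 12 months. The value was over 0.1 in 0 of 5, 2 of 4 and 1 of 4 pairs. So few pairs cannot settle whether the replicate numbers pair the samples. With the replicate block, 1 member was called in HSLAKO at 3 months (Lum) and 0 in DAKO at 7 months and in DAKO and HSLAKO at 12 months. With the mouse, taken from the animal numbers in the sample names, as a random block, 0 members were called between depots in each knockout. The control comparison could not be fitted. The values of Ptn and Ptk7 lay at background on many arrays, where differences are understated.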
